A study of Mus musculus with 151 samples.

Results

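The Aurora kinases and the spindle checkpoint were followed as 10 genes, Aurka, Aurkb, Aurkc, Incenp, Birc5, Bub1, Bub1b, Bub3, Mad2l1 and Ttk. They were chosen by name, with earlier results of these data known. All 10 were present among the 35976 gene names of each of the 7 count tables, which together held 143 RNA-seq libraries of female germ cells, cumulus cells and ovaries. Natural mice were conceived by mating CF-1 females with B6/SJL males, and IVF mice came from eggs of superovulated CF-1 females fertilized in vitro with B6/SJL sperm, cultured to blastocysts at low oxygen and transferred to pseudopregnant CF-1 recipients. Pups of both adult groups were delivered by cesarean section and fostered to CF-1 dams, and oocytes and cumulus cells of both groups were taken from superovulated offspring. Single oocytes numbered 36 Natural and 40 IVF at 12 weeks and 9 and 10 at 39 weeks, and whole ovaries were collected at E18.5 (4 and 6), 12 weeks (4 and 5) and 39 weeks (5 and 5). The series also held 4 Natural and 5 IVF libraries of primordial germ cells (PGCs) at E13.5, and 5 and 5 libraries of cumulus cells, the somatic cells around the oocyte, at 12 weeks. The labels and the account of tissue collection give E18.5 for the fetal ovaries of both groups, while the passage on cesarean delivery gives IVF pregnancies 1 day more, so whether the IVF fetuses were older is not settled by the sources.

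Aurora kinases phosphorylate proteins of the spindle and the kinetochore, the structure that joins chromosomes to microtubules. Aurora A works at the spindle poles, while Aurora B and its germ cell paralog Aurora C bind INCENP and survivin, the product of Birc5, in the chromosomal passenger complex that corrects faulty attachments. At unattached kinetochores TTK recruits BUB1, BUB3, BUBR1 (Bub1b) and MAD2 (Mad2l1), which hold back the anaphase promoting complex until every chromosome is attached, and in oocytes this checkpoint guards the first meiotic division. In dividing somatic cells most of these genes are transcribed in G2 and mitosis, whereas fully grown oocytes carry them as stored transcripts.

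Promoter sequences are shown for Aurka and Bub1b, which varied together across adult ovaries, and for Aurkc, which varied apart from them. Each is 300 bases, from 250 before to 50 after the transcription start, read 5′ to 3′ on the gene's strand from RefSeq on GRCm38.p6. The Aurka window is chr2:172370521-172370820 on the minus strand, the Bub1b window chr2:118597961-118598260 on the plus strand and the Aurkc window chr7:6995135-6995434 on the plus strand. Capitals mark the letters TTTGAA or TTCGAA on either strand (TTCAAA where the first lies on the other strand), which form the core of the cell cycle genes homology region of G2 and mitosis promoters.
Aurka: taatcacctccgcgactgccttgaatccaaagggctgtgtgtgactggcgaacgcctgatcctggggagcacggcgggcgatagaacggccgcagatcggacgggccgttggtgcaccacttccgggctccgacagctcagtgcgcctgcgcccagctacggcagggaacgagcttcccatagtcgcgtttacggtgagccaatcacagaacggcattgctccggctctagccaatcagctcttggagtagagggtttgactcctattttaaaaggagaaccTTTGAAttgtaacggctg
Bub1b: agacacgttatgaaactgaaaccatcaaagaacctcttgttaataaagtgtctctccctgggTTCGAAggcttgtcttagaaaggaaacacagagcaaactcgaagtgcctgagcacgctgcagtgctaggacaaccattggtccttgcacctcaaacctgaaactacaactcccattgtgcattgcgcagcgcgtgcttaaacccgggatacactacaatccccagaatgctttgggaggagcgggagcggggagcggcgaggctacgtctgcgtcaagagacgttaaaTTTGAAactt
Aurkc: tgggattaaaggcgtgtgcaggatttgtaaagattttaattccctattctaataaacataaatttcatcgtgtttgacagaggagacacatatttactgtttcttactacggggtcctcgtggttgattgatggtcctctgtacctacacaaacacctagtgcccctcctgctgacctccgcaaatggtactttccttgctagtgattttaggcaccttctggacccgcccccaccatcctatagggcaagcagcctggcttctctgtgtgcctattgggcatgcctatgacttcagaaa
These letters began 32 bases after the start in Aurka, and 188 bases before and 40 bases after it in Bub1b. Of the 8 genes with a window in the RefSeq table, 5 held a match (Aurka, Bub1b, Bub1, Bub3 and Ttk) and 3 held none (Aurkc, Mad2l1 and Birc5), against 19.2% of all 32851 windows. A match describes letters only. Across adult ovaries Mad2l1 and Birc5, without a match, followed markers of proliferation, with correlations of 0.88 to 0.95. Bub3, with a match, followed them less (0.592 and 0.257). Aurkb and Incenp had no entry in the table.

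Single oocytes at 12 weeks held 839781 to 10879166 counts each and those at 39 weeks 2820748 to 31126357, while ovaries held 2839022 to 43363799, PGCs 4364495 to 8675189 and cumulus cells 2532824 to 6345249. The shallowest ovary library was IVF replicate 4 at 12 weeks. The methods state that the ovaries came from separate animals of different litters. They also allow up to 2 littermates in the adult cohorts, so some adult ovaries may share a litter. For germ cells and cumulus cells no source used here names the animals, so p-values there measure only the spread between these samples. The 12-week oocytes were summed into 5 Natural and 5 IVF donor sets, read from number fields of the library names. No label says that these fields mark donors, so that reading is an assumption. Oocytes that stood apart numbered 10 of 76 at 12 weeks (4 Natural and 6 IVF) and 2 of 19 at 39 weeks (both Natural), with a correlation below 0.8 to the median profile of their table computed without the 10 genes. Their correlations were 0.516 to 0.662 at 12 weeks and 0.577 to 0.632 at 39 weeks, against at least 0.942 and 0.851 in all others. In the 12-week oocytes that stood apart Bub1b was at 1.52 to 27.0 CPM (reads scaled to a common library size), against 1335 to 4324 in the other 66, and the oocyte growth factor Gdf9 was at 103 to 433 against 9627 to 28390. Mad2l1 (297 to 1049 CPM), Ttk (32.4 to 245.9) and the oocyte factor Bmp15 (1051 to 5297) overlapped their ranges in the other 66. Fold changes and ratios in oocytes are therefore given with and without these 12 cells. The Natural cumulus replicate 5 carries a library name that begins like those of IVF oocytes, and Natural replicate 5 of the 39-week ovaries is labelled 40 weeks in 1 field. The markers of the labelled cell types were present. The 10 oocyte markers summed to 14160 to 31530 CPM in the 12-week oocyte sets. In single 39-week oocytes they summed to 2580 to 46930 in Natural and 22130 to 41830 in IVF. The 7 germ cell markers summed to 2959 to 9013 CPM in PGCs, and the 11 granulosa and cumulus markers to 1530 to 2752 in cumulus cells. Luteal markers summed higher in cumulus cells, to 17640 to 25990 CPM in Natural and 10670 to 30540 in IVF.

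Each of the 10 genes had its highest mean level in germ cells, either PGCs or oocytes, and Bub1b and Mad2l1 led in oocytes. Levels are given here as mean CPM per kilobase of transcript over both groups, and since each table was scaled on its own, values from different tables were not tested against each other. In 12-week oocytes Bub1b stood at 662 and Mad2l1 at 463, followed by Aurkc at 103, Birc5 at 90.1 and Aurka at 66.2, with Aurkb at 7.73. At 39 weeks the order was led by Mad2l1 at 465 and Bub1b at 417, and Birc5 (147.0) and Aurkc (146.6) were nearly equal. PGCs, which divide by mitosis before meiosis begins, were led by Mad2l1 at 190 and Aurka at 131, and there Aurkc at 41.0 lay near Aurkb at 50.2. In ovaries Birc5 led at E18.5 with 67.6 and Bub3 led at 12 and 39 weeks with 30.2 and 27.2, and Aurkc was lowest at all 3 ages with 3.11, 1.15 and 0.791. Cumulus cells were also led by Bub3, at 17.7, and Aurkc there was at 0.147, with reads in only 2 of 10 libraries. Per length, the summed counts of Aurkc were 19.8 times those of Aurkb in Natural and 7.07 times in IVF oocytes at 12 weeks. They were 7.72 and 4.09 times in oocytes at 39 weeks, and 0.752 and 1.05 times in PGCs. The 12-week donor sets overlapped, with ratios of counts, not scaled by length, of 3.13 to 26.4 in Natural and 2.33 to 9.97 in IVF sets.

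**Figure D1:**
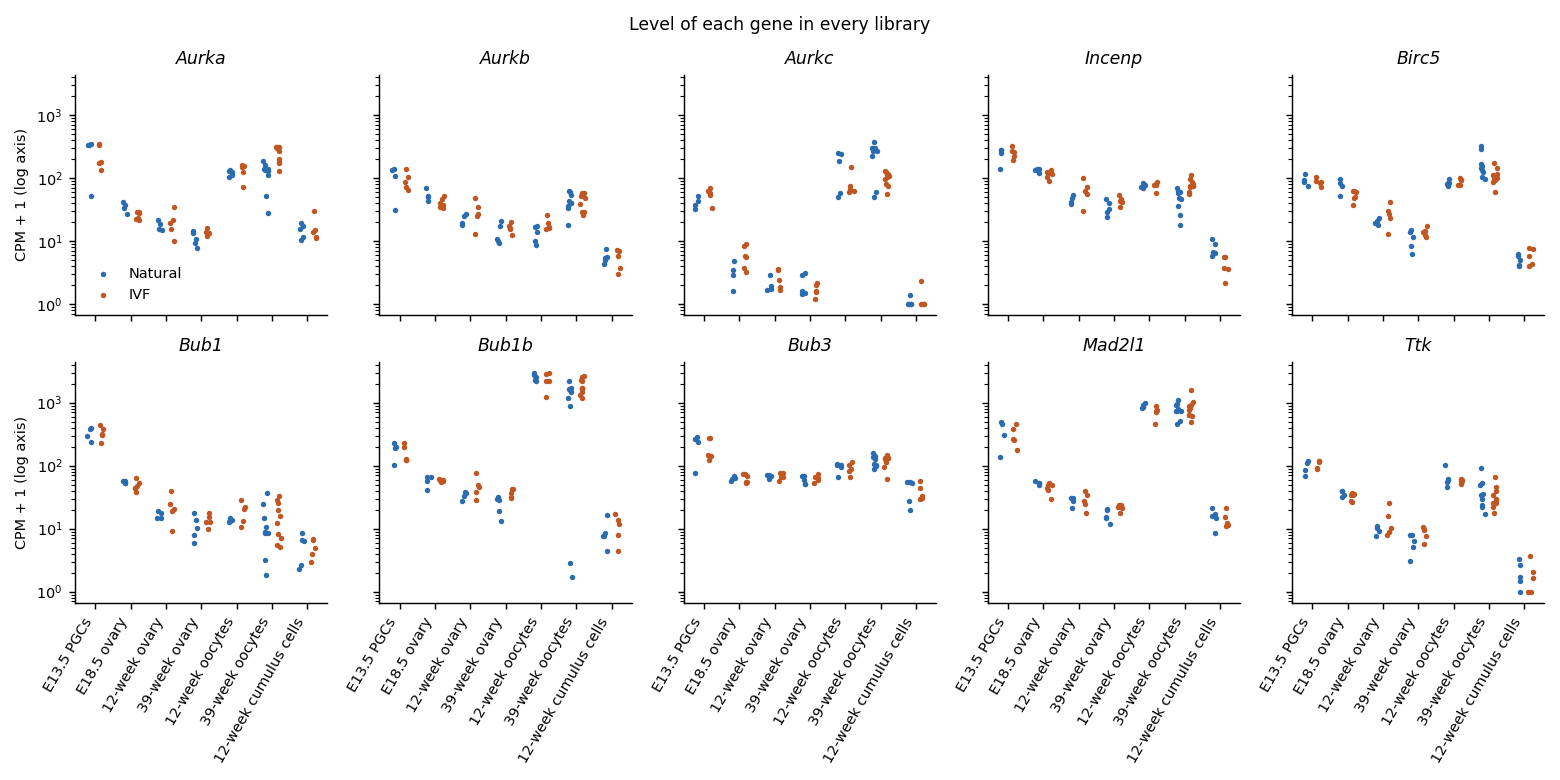
Level of each of the 10 genes as CPM + 1 on a log axis, in Natural (blue) and IVF (orange), with 1 point per library or, for 12-week oocytes, per donor set, and each table scaled on its own. Bub1b and Mad2l1 stand highest in oocytes, and Aurkc is lowest in ovaries and cumulus cells.

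In oocytes ovulated at 12 weeks, Aurkc, the meiotic Aurora kinase, had a lower mean in the IVF group, but its level differed far more between donor sets within a group than between Natural and IVF. Summed per donor set, Aurkc stood at 250.5, 187, 239, 48.9 and 57.3 CPM in Natural sets 1 to 5, and at 66.5, 74.2, 149, 58.7 and 60.4 in IVF sets 1 to 5. Natural sets 1 to 3 were above every IVF set, whereas Natural sets 4 and 5 were below every IVF set. The difference was a log2 fold change of -0.90 ± 0.45 (SE, n = 5 and 5), with an interval of -1.88 to 0.08 and an adjusted p of 0.775 by edgeR's quasi-likelihood test, which was not significant.

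Without the oocytes that stood apart the Aurkc fold change was -0.65 ± 0.54 on the log2 scale (edgeR adjusted p = 0.897), and IVF set 3 moved from 149 to 261.7 CPM. Among the 66 remaining oocytes the single-cell values did not overlap between donor sets of high and low level. In Natural sets 1, 2 and 3 and IVF set 3, every one of 23 oocytes lay between 191 and 329 CPM. In Natural sets 4 and 5 and IVF sets 1, 2, 4 and 5, every one of 43 lay between 31.7 and 106.6 CPM. Differences between sets held 91.6% of the sum of squares of log2 Aurkc over these oocytes. That share includes the 15.8% held by the treatment, since each set belongs to 1 group. The SD within sets was 0.32 log2 units. For the other 9 genes the share between sets, again with the treatment included, was 15.5% (Incenp) to 57.3% (Bub3). The sets were grouped by high and low level after their values were seen, so the split carries no test. Natural sets 3, 4 and 5 share the first field of their library names and yet lay on both sides of the split, as did IVF sets 1, 2 and 3.

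Counts of Aurkc are uncertain for another reason. Of the 50-base stretches of its transcripts (GENCODE M21, chr7:6995300-7003091, plus strand), 55.5% also occur in transcripts of 10 other genes, foremost the processed pseudogene Gm12463 on chromosome 4, which shares 43.1%. The other 9 lie on chromosome 7, and 3 of the 10 have rows in the tables. The most counted of these, Gm7789, had a mean of 21.5 CPM in Natural and 19.0 in IVF sets at 12 weeks, and of 25.6 and 26.6 in the oocytes at 39 weeks. The part of shared reads in the Aurkc counts was not tested. For the other members at most 2.0% of stretches were shared, and no member overlapped an exon of another gene.

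**Figure D2:**
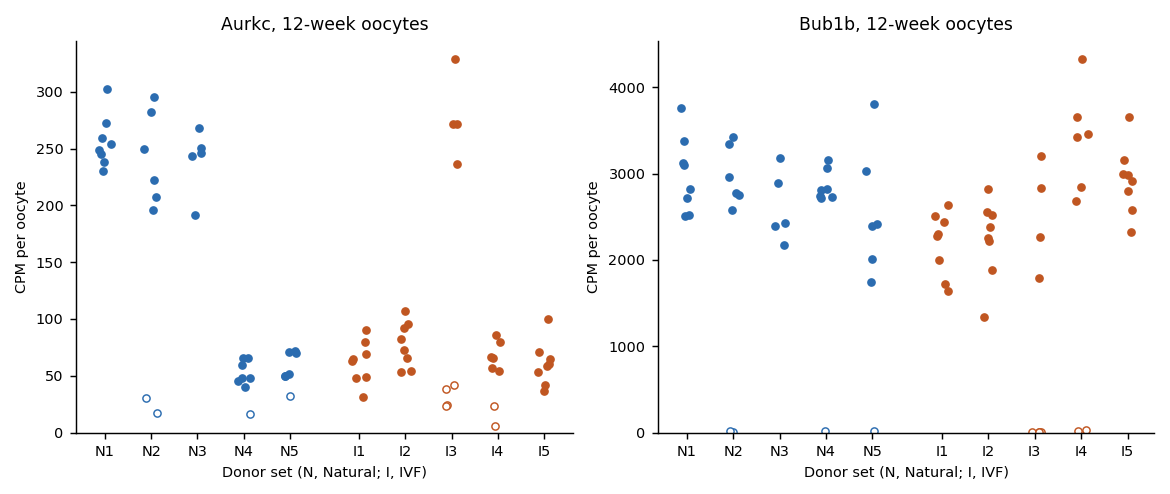
Level of Aurkc and Bub1b in each 12-week oocyte, in CPM on a linear axis, by donor set (N1 to N5 Natural, I1 to I5 IVF), with open circles for oocytes that stood apart. Aurkc is high in the filled circles of N1, N2, N3 and I3 (191 to 329) and low in the other 6 sets, while Bub1b is at 1.52 to 27.0 in the open circles and at 1335 to 4324 in the filled ones.

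Of the other Aurora kinases, Aurkb, the mitotic partner of the passenger complex, was at 13.0, 16.4, 9.05, 15.6 and 7.67 CPM in Natural sets and 15.9, 14.8, 15.0, 25.2 and 18.1 in IVF sets. Natural sets 2 and 4 reached into the IVF range, and no IVF set was below 14.8 CPM. The log2 fold change was 0.55 ± 0.24 (edgeR unadjusted p = 0.0380, adjusted p = 0.745), and without the oocytes that stood apart it was 0.52 ± 0.26 (unadjusted p = 0.0654, adjusted p = 0.784). Aurka, the spindle pole kinase, was at 102.7 to 131.5 CPM in Natural sets with a median of 124, and at 72.4 to 158.6 in IVF sets with a median of 150.3. IVF set 3, in which 4 of 8 oocytes stood apart, gave the lowest value. The fold change was 0.14 ± 0.18 over all oocytes and 0.17 ± 0.10 without the 10 that stood apart in any set. The passenger proteins Incenp (0.03 ± 0.12, and 0.06 ± 0.10 without the 10) and Birc5 (0.10 ± 0.12, and 0.05 ± 0.11) had values near 0 on the same scale.

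Mad2l1, which forms the inhibitor of the anaphase promoting complex together with BUBR1, was at 929, 982, 865, 854 and 823 CPM in Natural sets and at 894, 705, 465, 725 and 752 in IVF sets. Only IVF set 1 reached into the Natural range. The log2 fold change was -0.32 ± 0.14 (edgeR unadjusted p = 0.0410, adjusted p = 0.745), and without the oocytes that stood apart it was -0.26 ± 0.10 (unadjusted p = 0.0215, adjusted p = 0.706). Bub1, the kinase that marks the inner centromere, was at 11.6 to 13.6 CPM in Natural sets and at 9.43, 19.7, 27.4, 20.9 and 12.3 in IVF sets, a log2 fold change of 0.55 ± 0.26 (adjusted p = 0.768). Without the oocytes that stood apart it was 0.20 ± 0.19, and the highest IVF value, in set 3, came with 4 such oocytes. Bub1b (-0.15 ± 0.19), Bub3 (-0.01 ± 0.16) and Ttk (-0.16 ± 0.19) had intervals on both sides of 0, and without the oocytes that stood apart their values were -0.07 ± 0.13, 0.08 ± 0.15 and -0.06 ± 0.12.

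By edgeR 0 of the 10 genes were called at an adjusted p below 0.05 in 12-week oocytes, where 0.0277% of 14444 genes were called. Aurkb and Mad2l1 had an unadjusted p below 0.05, 2 of 10 where 6.67% of all genes had one, and DESeq2 called 0 of the 10 where it called 0.28%. Without the oocytes that stood apart edgeR called 0 of the 10 and 6 genes in all, and Mad2l1 was the 1 of 10 with an unadjusted p below 0.05 where 910 of 14081 genes had one. The sets of both groups overlapped for all 10, where they did not for 1.39% of genes. The pathway around them gave no calls either, by edgeR or DESeq2, and 1 of its 51 genes had an unadjusted p below 0.05. The median log2 fold change was -0.10 for the 6 partners of the passenger complex and -0.04 for the 6 activators and spindle pole proteins of Aurora A. It was -0.04 for the 18 kinetochore and checkpoint proteins and -0.01 for the 21 genes listed with the anaphase promoting complex and its targets. None of these genes was called, and the median over all genes was 0.02. Hemoglobin and Alas2 transcripts, markers of red cells, summed to 19.4 to 74.8 CPM in Natural and 7.35 to 357 in IVF sets, and their part in these values was not tested.

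The balance of the paralogs was taken as the log2 ratio of Aurkc to Aurkb counts within each donor set, which does not depend on the scaling of a library. It was 3.41 ± 1.21 in Natural and 2.13 ± 0.78 in IVF sets (SD, n = 5 and 5). The difference of -1.28 had p = 0.0873 in a two-sided exact permutation test, whose smallest possible p is 0.00794. Without the oocytes that stood apart it was -1.18 (exact permutation p = 0.127). Leaving out Natural set 4 gave -1.72 and a p of 0.0317 by the exact permutation test, the only set whose removal brought p below 0.05. The test takes all sets as exchangeable. Natural sets 1 and 2 share the first field of their library names, as do Natural sets 3 to 5, IVF sets 1 to 3 and IVF sets 4 and 5. Whether sets with the same field are independent is not known.

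At 39 weeks the oocytes gave a description only, because no label tells the animals apart and each group is then 1 sample. Aurkc was again lower in the IVF group, at 55.7, 105.5 and 128 CPM (lowest, median and highest of 10 oocytes) against 49.7, 273 and 374 in 9 Natural oocytes. The 7 Natural oocytes that did not stand apart lay at 225 to 374 CPM, above all 10 IVF oocytes, and the 2 that stood apart, replicates 6 and 9, were at 49.7 and 58.9. Summed counts were 22460 in Natural (95% exact Poisson interval 22167 to 22756) and 18614 in IVF oocytes (18348 to 18883), and the ratio of mean CPM was 0.415, or 0.347 without the 2 cells. These intervals cover counting error only, and they are too narrow where both mates of a pair were counted: 70.8% of counts from 1 to 20 in this table were even numbers. The 12-week oocytes of a donor set were alike in Aurkc and the sets were not, though that a set is 1 donor is assumed. At 39 weeks a difference between 2 groups of unknown animals cannot be told apart from a difference between those animals.

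Aurka stood at 131, 275.5 and 316 CPM in IVF and 27.2, 132 and 187.5 in Natural oocytes. The groups overlapped, with the 7 typical Natural cells at 109 to 187.5. Its ratio of IVF to Natural mean CPM was 2.08, and 1.79 without the 2 cells that stood apart. Incenp, the scaffold of the passenger complex, was at 55.8, 74.2 and 109 CPM in IVF and 17.2, 46.6 and 68.0 in Natural oocytes, a ratio of 1.70, or 1.501 without those cells. The 2 groups overlapped for Incenp between 55.8 and 68.0 CPM. Birc5 was at 60.1, 101 and 172 CPM in IVF and 95.8, 144 and 326 in Natural oocytes, and its ratio moved from 0.628 to 0.734 without the 2 cells. Aurkb had a ratio of 1.04, and of 1.05 without those cells, with 24.6 to 57.9 CPM in IVF and 16.9 to 61.7 in Natural oocytes.

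Among the checkpoint genes Bub1b had a ratio of 1.57 over all oocytes and of 1.25 without the 2 that stood apart, in which it was at 0.688 and 1.84 CPM against 875.5 to 2618 in the other 17. Bub1 went the opposite way, from 1.25 to 1.52, at low levels of 4.16 to 31.9 CPM in IVF and 0.850 to 36.2 in Natural oocytes. Mad2l1 (1.09), Bub3 (1.01) and Ttk (0.843) stayed within 1.5-fold, as they did without the 2 cells (1.09, 0.981 and 1.14). In all 5 of the 10 genes lay past 1.5-fold where 30.2% of 7759 genes did, with Aurka, Incenp and Bub1b higher and Aurkc and Birc5 lower in IVF oocytes. Without the 2 cells it was 4 of 10 where 20.4% did, with Aurka, Bub1 and Incenp higher and Aurkc lower. Of the pathway genes at 5 CPM or more in at least 1 group, 1 of 6 passenger partners, 1 of 6 Aurora A activators, 5 of 16 kinetochore proteins and 5 of 19 anaphase promoting complex genes were past 1.5-fold. Red cell markers summed to 114 to 22340 CPM in Natural and 2.91 to 31060 in IVF oocytes, and their part in these ratios was not tested.

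**Figure D3:**
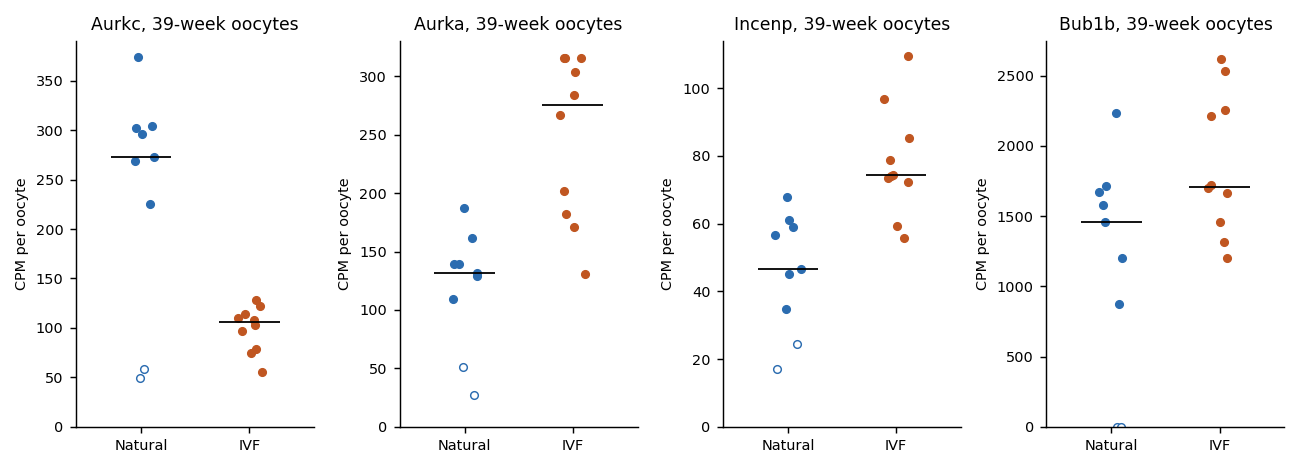
Level of Aurkc, Aurka, Incenp and Bub1b in each of 9 Natural and 10 IVF oocytes at 39 weeks, in CPM on a linear axis, with the median of all oocytes of a group as a black line and open circles for the 2 that stood apart. Apart from these 2, Aurkc lies at 225 to 374 in Natural and 55.7 to 128 in IVF oocytes, and the groups overlap for the other 3 genes.

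In the E18.5 ovary 7 of the 10 genes had lower values in the IVF group, led by Birc5 and Aurka, but none passed the test across all genes. In whole ovary, fewer cells of a type and less RNA per cell cannot be told apart. Birc5 was at 51.8, 82.7, 72.8 and 95.6 CPM in Natural ovaries and at 36.5 to 60.9 in the 6 IVF ovaries, with a median of 54.0. All Natural ovaries but replicate 1 were above every IVF ovary, and the log2 fold change was -0.52 ± 0.18 (edgeR adjusted p = 0.0963). Aurka showed the same arrangement, at 26.2, 36.1, 40.1 and 32.3 CPM in Natural ovaries and 20.7 to 28.2 in IVF ovaries, a log2 fold change of -0.45 ± 0.15 (adjusted p = 0.0963). Without Natural replicate 1 edgeR called both, Aurka at -0.56 ± 0.14 (adjusted p = 0.0277) and Birc5 at -0.67 ± 0.16 (adjusted p = 0.0189), and the genes called in all rose from 891 to 1973. DESeq2 on all libraries called Birc5 alone, at -0.53 with an adjusted p of 0.0485.

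The other kinases of the fetal ovary had values in opposite directions. Aurkb was at 43.1 to 68.5 CPM in Natural and 32.6 to 50.7 in IVF ovaries, a log2 fold change of -0.40 ± 0.16 (edgeR adjusted p = 0.151). Aurkc was at 1.86, 3.88, 2.47 and 0.615 CPM in Natural and 2.19 to 7.86 in IVF ovaries, a log2 fold change of 1.18 ± 0.49 (adjusted p = 0.160) on 99 and 288 summed counts. Mad2l1 (-0.26), Incenp (-0.20), Bub1 (-0.18) and Ttk (-0.16) were lower and Bub1b (0.03) and Bub3 (0.04) slightly higher on the log2 scale, with adjusted p of 0.294 to 0.914. In all, edgeR called 0 of the 10 where it called 5.43% of 16415 genes, 4 of 10 had an unadjusted p below 0.05 where 24.1% of genes did, and DESeq2 called 1 where it called 10.6%. The groups overlapped for all 10, where they did not for 8.61% of genes.

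Around them edgeR called only Cdk1, the kinase of mitotic entry (70.5 ± 10.3 against 44.9 ± 3.65 CPM, SD, log2 fold change -0.64, adjusted p = 0.0143), and Fzr1, an activator of the anaphase promoting complex (-0.44, adjusted p = 0.0323). Both are in the list of 21 genes for the anaphase promoting complex and its targets, though Cdk1 is not a subunit of the complex. Either tool called 0 of the 30 genes of the other 3 pathway lists. DESeq2 called 5 of the 21, all lower, where it called 10.6% of all genes. Of the 51 pathway genes edgeR called 2 where it called 5.43% of all genes. By edgeR 18 of the 51 had an unadjusted p below 0.05 where 24.1% of genes did. Summed proliferation markers overlapped, at 1443 to 2151 CPM in Natural and 1448 to 1858 in IVF ovaries. Cell type markers differed beside these values. Oocyte markers summed to 217 to 723 CPM in Natural and 46.1 to 268 in IVF ovaries with 4 of 9 tested called lower (Zp3, Zp1, Ooep and Gdf9), and red cell markers to 608.5 to 1617 and 1610 to 4536 with Alas2 and Hbb-bs called higher. Of the other markers Lhcgr and Star, genes of luteal and other steroidogenic cells, were called higher. The germ cell gene Pou5f1 and the endothelial gene Pecam1 were called lower. Germ cell markers as a list did not follow Pou5f1, since 4 of 7 had higher values after IVF (median 0.28 on the log2 scale). DESeq2 called 1 of the 7 higher and 1 lower. Their sums overlapped, at 258 to 818 CPM in Natural and 220 to 601 in IVF ovaries. The part of all these cell type markers in the values of the 10 genes was not tested.

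**Figure D4:**
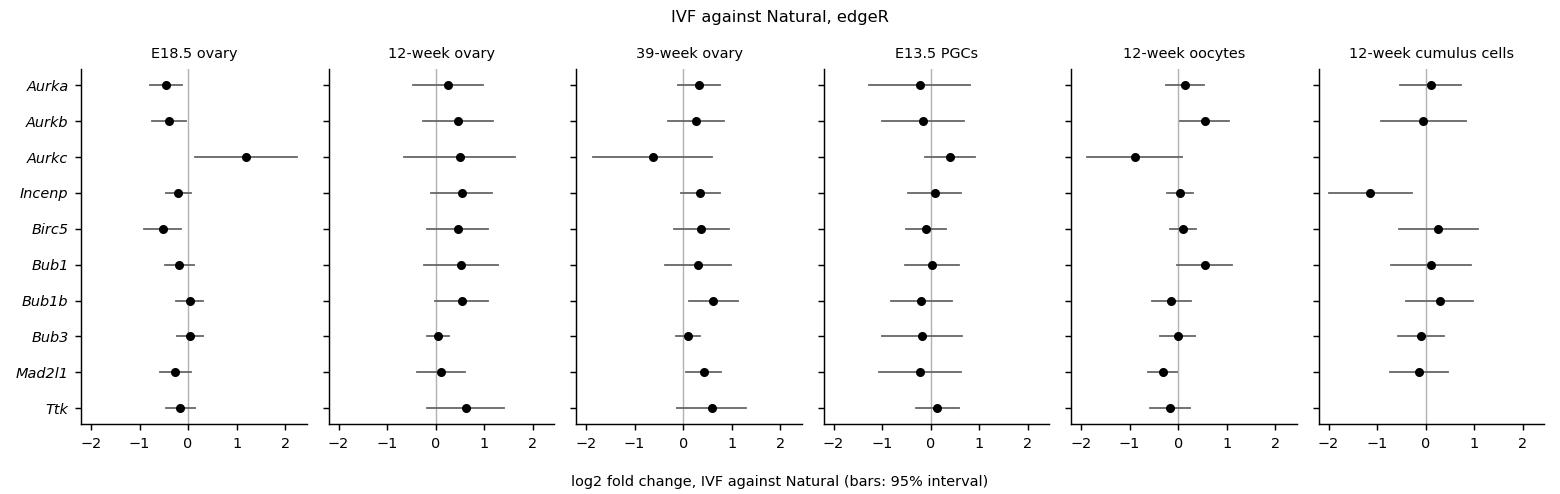
Log2 fold change of IVF against Natural for the 10 genes in the 6 tested comparisons, with 95% intervals from edgeR's quasi-likelihood fit (Aurkc and Ttk were not tested in cumulus cells). Values lie below 0 for 7 of 10 genes in the E18.5 ovary and above 0 for 10 and 9 of 10 in the 12- and 39-week ovary, and none was called at an adjusted p below 0.05.

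In adult ovaries the direction was the opposite, with higher values in IVF ovaries for 10 of 10 genes at 12 weeks and for 9 of 10 at 39 weeks, yet within the spread of the libraries. At 12 weeks the largest values were those of Ttk (0.62 ± 0.35 log2 units), Incenp (0.54 ± 0.28), Bub1b (0.54 ± 0.25) and Bub1 (0.53 ± 0.34), and edgeR's adjusted p over the 10 genes ran from 0.356 to 0.894. Bub1b was at 37.3, 26.2, 31.5 and 35.9 CPM in Natural ovaries and at 37.0, 47.7, 74.8, 44.9 and 27.8 in IVF ovaries. IVF replicates 2, 3 and 4 were above every Natural ovary, and IVF replicates 1 and 5 lay within the Natural range. The median of the 10 fold changes was 0.48, against 0.01 over all genes. It was 0.22 without IVF replicate 3, with 8 of 10 still above 0, and 0.64 without IVF replicate 5. In the edgeR fit without IVF replicate 5, 5 of 10 had an unadjusted p below 0.05, where 2701 of 17792 genes had one. None of the 10 was called in it.

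By edgeR 0 of the 10 were called at 12 weeks where 0.00567% of 17628 genes were, 0 had an unadjusted p below 0.05 where 14.4% of genes did, and DESeq2 called 0 where it called 3.45%. The groups overlapped for all 10, where they did not for 6.09% of genes. Neither tool called any of the 51 pathway genes, of which 13 had an unadjusted p below 0.05, with medians of 0.60 for the passenger partners, 0.46 for the Aurora A activators, 0.41 for kinetochore proteins and 0.17 for the anaphase promoting complex. Markers of oviduct and other epithelium, tissue next to the ovary, summed to 3445 to 8019 CPM in Natural and 85.3 to 3063 in IVF ovaries, and the part of this difference in the values above was not tested.

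At 39 weeks Bub1b led. It was at 12.2, 28.1, 27.0, 31.0 and 18.3 CPM in Natural ovaries and at 30.7, 36.5, 30.1, 41.9 and 41.2 in IVF ovaries. Natural replicate 4 alone reached into the IVF range, and the log2 fold change was 0.62 ± 0.23 (edgeR adjusted p = 0.192). Mad2l1 was at 10.9, 18.6, 14.0, 19.6 and 14.6 CPM in Natural and 17.0, 23.1, 20.2, 21.4 and 22.9 in IVF ovaries, a log2 fold change of 0.42 ± 0.16 (adjusted p = 0.210). Only these genes had an unadjusted p below 0.05, 2 of 10 where 19.2% of genes did, and edgeR called 0 of the 10 where it called 0.262% of 17186 genes. DESeq2 called 0 of the 10 where it called 6.75%, and the groups overlapped for all 10 where they did not for 5.11% of genes.

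Ttk (0.59 ± 0.32), Birc5 (0.37 ± 0.26), Incenp (0.35 ± 0.18), Aurka (0.32 ± 0.19), Bub1 (0.31 ± 0.31), Aurkb (0.27 ± 0.26) and Bub3 (0.09 ± 0.11) were also higher on the log2 scale, and Aurkc, at 0.219 to 2.07 CPM, was lower at -0.63 ± 0.56. Natural replicate 1 was lowest of the 10 libraries for 8 of the 10 genes, and without it the median of the fold changes was 0.21 in place of 0.34. Without Natural replicate 5 the median was 0.27. Of the pathway genes edgeR called only Anapc15, a subunit of the anaphase promoting complex that turns the checkpoint complex over, at 25.7 ± 2.20 CPM in Natural and 14.9 ± 1.84 in IVF ovaries (SD, n = 5 and 5, log2 fold change -0.79, adjusted p = 0.0303). DESeq2 called 3 of the 51 pathway genes, all in the anaphase promoting complex list, 2 higher and 1 lower. Luteal markers summed to 17750 to 29000 CPM in Natural (median 27670) and 9937 to 22270 in IVF ovaries (median 15110), with a median log2 fold change of -0.57, 2 of 5 at an unadjusted p below 0.05, 0 called by edgeR and 1 called lower by DESeq2. Epithelium markers summed to 51.3 to 219 CPM in Natural and 56.6 to 8529 in IVF ovaries, and germ cell markers to 27.1 to 50.4 and 46.8 to 148. The part of these markers in the values of the 10 genes was not tested.

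Across the libraries of adult ovaries 8 of the 10 genes varied together, and with markers of proliferation. The median Pearson correlation over the 36 pairs of genes without Aurkc was 0.886 at 12 weeks (9 libraries) and 0.911 at 39 weeks (10 libraries), and that of Aurkc with the other 9 was 0.16 and -0.05. Correlations with proliferation used a mean over 12 markers, a measure that differs from their summed CPM. Those of Aurka, Aurkb, Birc5, Incenp, Bub1, Bub1b, Mad2l1 and Ttk were 0.869 to 0.989 at 12 weeks and 0.889 to 0.968 at 39 weeks. Those of Bub3 were 0.592 and 0.257, and those of Aurkc 0.153 and 0.094. These values describe few libraries that share scaling and tissue and carry no test. The marker sum was 628 to 867 CPM in Natural and 480 to 1502 in IVF ovaries at 12 weeks, and 393 to 772 and 569 to 847 at 39 weeks. Granulosa and cumulus markers, from somatic cells of the follicle, summed to 1357 to 2055 CPM in Natural and 1799 to 3951 in IVF ovaries at 12 weeks. At 39 weeks they summed to 711 to 1972 and 1247 to 3755. Of the 10 tested at each age, 6 had higher values in IVF ovaries at 12 weeks and 8 at 39 weeks. The part of the cell composition in the higher values of IVF ovaries was not tested.

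**Figure D5:**
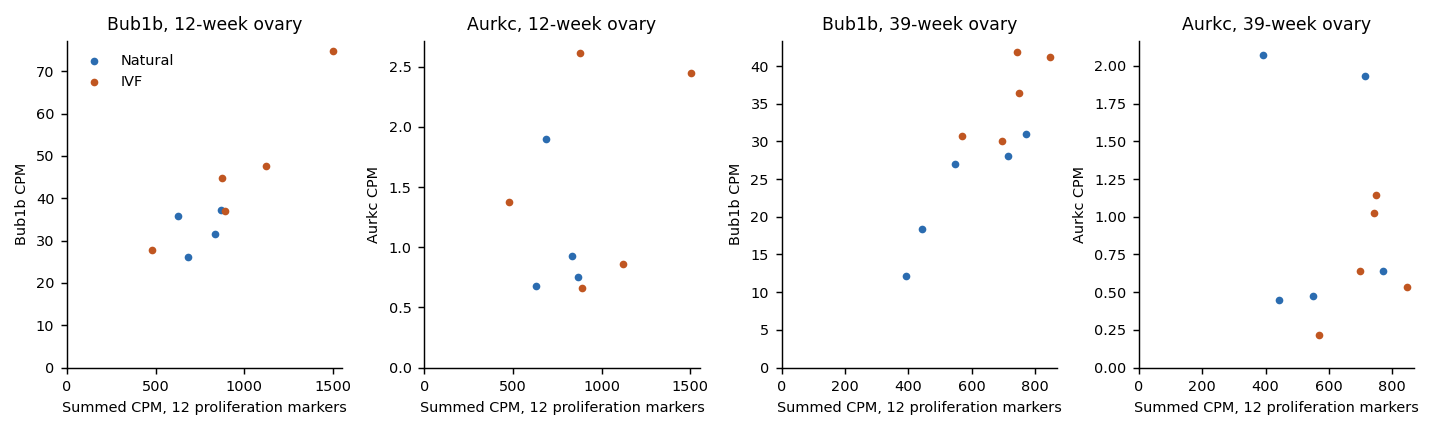
Level of Bub1b and Aurkc against the summed level of 12 proliferation markers in each Natural (blue) and IVF (orange) ovary at 12 and 39 weeks, all in CPM. Bub1b tends to be higher where the sum is higher, and Aurkc shows no such clear relation.

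Whether the effect of IVF differed between ages was tested in 1 model over all 29 ovaries. For 39 against 12 weeks edgeR called 0 of the 10 genes where 2.71% of 19724 genes were called, and 0 had an unadjusted p below 0.05 where 20.0% did, with interaction terms from -1.15 (Aurkc) to 0.31 (Mad2l1) on the log2 scale. For 12 weeks against E18.5 it called 0 where 0.314% were called, and 4 of 10 had an unadjusted p below 0.05 where 14.0% did. These were Birc5 (0.99 ± 0.36, adjusted p = 0.210), Incenp (0.76 ± 0.31, 0.263), Aurkb (0.89 ± 0.39, 0.303) and Aurka (0.73 ± 0.34, 0.336). The Anapc15 term for 39 against 12 weeks was -1.01 (adjusted p = 0.0279). The opposite signs at E18.5 and 12 weeks thus did not pass the test for any of the 10, and the difference between E18.5 and 39 weeks was not tested.

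In PGCs at E13.5 the groups overlapped for all 10 genes, and the largest value was that of Aurkc. It was at 42.9, 35.9, 31.1 and 51.6 CPM in Natural and 68.2, 32.4, 60.6, 56.2 and 53.9 in IVF libraries, a log2 fold change of 0.41 ± 0.24. Aurka, the most variable member, was at 351, 51.8, 330 and 339 CPM in Natural and 343, 135, 178, 333 and 174 in IVF libraries (-0.22 ± 0.48). Natural replicate 2 was far below the other Natural libraries, and without it the fold change of Aurka was -0.57 ± 0.29 and the median over the 10 genes moved from -0.12 to -0.29. EdgeR called 0 of the 10 and 0.0% of 12763 genes, with adjusted p of 1.00 for each of the 10 and 0 at an unadjusted p below 0.05 where 2.73% of genes had one, and DESeq2 called 0 of the 10 and 0.0% of genes. The groups did not overlap for 1.18% of genes. The median pairwise correlation without Aurkc was 0.817 over 9 libraries. Proliferation markers summed to 4017 to 10880 CPM in Natural and 4802 to 10740 in IVF libraries, and both tools called 0 of the 51 pathway genes, with 2 at an unadjusted p below 0.05.

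Cumulus cells at 12 weeks held little of these transcripts, and Incenp alone separated the groups. Incenp was at 7.90, 4.71, 5.47, 9.77 and 5.81 CPM in Natural and 2.75, 4.67, 4.65, 1.15 and 2.61 in IVF libraries. The groups did not overlap, though the nearest Natural and IVF libraries differed by 0.037 CPM, and the log2 fold change was -1.14 ± 0.40 (edgeR unadjusted p = 0.0118, adjusted p = 0.662). Without the Natural library whose name resembles IVF oocytes it was -1.25 ± 0.44 (adjusted p = 0.720). Aurkc and Ttk were under the filter on low counts, and of the 8 members tested edgeR called 0 where 0.00973% of 10280 genes were called. Incenp was the 1 of 8 with an unadjusted p below 0.05 where 6.08% of genes had one. It was also the 1 of 8 whose groups did not overlap, where those of 0.759% of genes did not. DESeq2 called 0 of the 10 where it called 0.455% of the 6810 genes to which it gave an adjusted p. Members with low counts, such as Aurkc and Ttk, need not be among those genes. The other 7 ranged from -0.14 (Mad2l1) to 0.29 (Bub1b) on the log2 scale, and both tools called 0 of the 44 pathway genes tested, with 1 at an unadjusted p below 0.05. Oocyte markers in these libraries summed to 0.817 to 34.4 CPM.

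The genes most like the Aurora kinases were taken by Pearson correlation of log2(mean CPM + 1) over the 14 groups of libraries, among 15536 genes. Aurka was closest to Cdc20 (0.995), the activator of the anaphase promoting complex, then Gmnn (0.988) and Uchl3 (0.987). Aurkb was closest to LOC108167344 (0.981), Mcrs1 (0.974) and Tacc3 (0.9699). Aurkc was closest to Nup62 (0.990), Asf1b (0.988) and Mad2l1 (0.987). Over 14 groups of 7 kinds of cell or tissue these correlations mainly contrast germ cells with ovary and cumulus cells, and they carry no test. In 39-week oocytes the genes like Aurkc had ratios unlike its own, with Nup62 at 633 CPM in Natural and 472 in IVF oocytes and Mad2l1 at 767.5 and 838.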

How the data were processed

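RNA-seq counts per gene were measured in 143 libraries, in 1 table per age and tissue. The authors deposited raw read counts (unit: counts), which per the labels were made with Trimmomatic 0.32, STAR 2.3.0e, featureCounts 1.5.0 and the mouse build mm10, and library strandedness is not given in the sources used here. No per-sample column was left unmapped. Counts of 12-week oocytes were summed per donor set, a grouping read from library names and assumed to mark donors. EdgeR 4.0.16 in R 4.3.3 (filterByExpr, TMM scaling, quasi-likelihood test, Benjamini-Hochberg over all genes of a fit) compared IVF with Natural, and a gene was called at an adjusted p below 0.05. The cumulus fit held the kind of library name as a covariate. SE is the log2 fold change divided by the square root of F, and intervals are 95% intervals. DESeq2 1.42.0, library totals in place of TMM, no filter, a replicate block and leaving out each library were the alternatives. CPM are TMM-scaled within a table, and levels between genes are per kilobase of the main GENCODE M21 transcript. Same-numbered replicates were not paired. Every one of the 10 genes was described in every comparison. For each pathway list the calls were counted and up to 4 called genes with the largest change named, and the 3 genes most like each Aurora kinase were taken among genes at 5 CPM or more in at least 1 group. The 10 genes and the lists were chosen with earlier results of these data known. The fits were tested on simulated data with 200 changed genes. Cumulus cells at 39 weeks were not analysed here.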

Additional observations from a re-analysis of the deposited data

Results flagged for a closer look

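Of 140 groups of 4 to 10 values of the 10 genes, 12 held a library whose gap to the nearest other value exceeded Dixon's 95% critical value, and chance flags about 1 in 20 groups. In PGCs 3 of the 12 belong to Natural replicate 2, the lowest Natural library for Aurka (51.8 CPM against 330 to 351 in the others), Bub3 (76.8 against 232 to 280) and Incenp (137.8 against 252 to 277). In the 12-week oocytes IVF set 3, in which 4 of 8 oocytes stood apart, was highest for Aurkc (149 CPM against 58.7 to 74.2 in the other IVF sets) and lowest for Incenp (56.7 against 76.2 to 85.5), and Natural set 5 was lowest for Bub3 (64.5 against 93.1 to 103.6). In the 12-week ovary Natural replicate 3 was lowest for Bub3 (59.96 CPM against 68.7 to 69.7). In the 39-week oocytes Natural replicate 6, which stood apart, was lowest for Aurkb (16.9 CPM against 32.5 to 61.7), and IVF replicate 7, the shallowest IVF oocyte, was lowest for Bub3 (59.5 against 93.7 to 149). In cumulus cells IVF replicate 3 was highest for Aurka (29.2 CPM against 10.2 to 13.8), and Aurkc had reads only in Natural replicate 4 (0.391 CPM) and IVF replicate 5 (1.31), with the other libraries at 0. The IVF effect did not differ past the threshold for any of the 10 genes between 39 and 12 weeks or between 12 weeks and E18.5, the contrasts of ages that were run.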

How the results depend on the processing

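The 78 log2 fold changes of the 10 genes had 926 alternative values, of which 884 kept their sign and 914 moved by less than 1 SE, and 3 passed the threshold, all in the E18.5 ovary. DESeq2 called 1 of the 10 there (Birc5), and leaving out 1 library gave 0 to 2 (Aurka and Birc5 without Natural replicate 1). In every other tested comparison leaving out 1 library gave 0 to 0 called. The counts of all called genes varied more. In the E18.5 ovary they were 891, 1870 by DESeq2 and 313 to 1973 without 1 library. In the 12-week ovary they were 1, 635 by DESeq2, 9 without the filter and 1 to 5 without 1 library. In the 39-week ovary they were 45, 1135 by DESeq2, 70 with library totals, 28 without the filter and 0 to 123 without 1 library (0 without Natural replicate 5). In the 12-week oocytes they were 4, 54 by DESeq2, 19 without the filter and 1 to 8 without 1 set. With counts summed per first field of the library names edgeR called 5 there. In cumulus cells they were 1, 31 by DESeq2, 104 without the filter, 0 without the covariate, 5 without the Natural library named like IVF oocytes and 1 to 5 without 1 library. In PGCs they were 0 under each setting. The interaction of 39 against 12 weeks called 534 genes, and 3 with only these 2 ages. That of 12 weeks against E18.5 called 62, 1 with library totals and 1 with only these ages. The cause of these changes was not tested.

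With a replicate block, 3 genes were called in the E18.5 ovary, 0 in the 12-week ovary, 24 in the 39-week ovary, 24 in cumulus cells and 0 in PGCs, and 0 of the 10 genes in each. The shared numbers were not read as pairing, since no table had every pair's correlation over 0.1 (range -0.357 to 0.536). Own-number correlations were best for 3 of 5 pairs at 39 weeks and 3 of 4 in PGCs. In the 39-week oocytes 2 of the 10 genes were past 2-fold, against 5 past 1.5-fold, 4 by medians and 4 without the oocytes that stood apart, an alternative chosen after seeing the data. The Aurkc to Aurkb difference ranged from -1.72 to -0.95 on the log2 scale when 1 set was left out.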
